A study of Rattus norvegicus with 2 samples.

Results

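Among microglia of the fetal rat hippocampus without Gpnmb or Lpl, the cells highest in 5 CC chemokines held 63.8% of the UMIs of these genes in the dexamethasone library and 59.1% of them for control. These chemokine-high microglia were defined by a rule on measured values, so that concentration describes the choice and is no finding. A barcode was kept when it had 200 or more genes and no more than 20% of its UMIs from mitochondrial genes (a UMI, or unique molecular identifier, counts 1 captured RNA molecule). Of these, microglia were taken as cells with at least 0.8% of UMIs from C1qa, C1qb and C1qc and under 0.15% from the border macrophage genes Mrc1, Pf4, Ms4a7 and Stab1. Those with any UMI of Gpnmb or Lpl, genes of axon-tract-associated and lipid-handling microglia, were set aside. The remaining 5751 cells were ranked by the share of their UMIs from Ccl2, Ccl3, Ccl4, Ccl7 and Ccl12, and the top 5% were 288 cells of the 12670 barcodes in the series. The other 5463 cells are called other microglia below. A count of 0 UMIs of Gpnmb and Lpl at this depth does not show that a cell lacks either RNA.

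The series is about what prenatal glucocorticoid does to microglia of the hippocampus. Cells of male rat embryos at gestational day 20 had been sorted by flow cytometry and captured in droplets, with 7 embryos pooled per library. The series has 1 library from embryos with prenatal exposure to dexamethasone, a synthetic glucocorticoid, and 1 from control embryos without it. Strain, dose, route and sort markers are not given in the sources used here. Depth came to 42611920 UMIs over 4328 barcodes for dexamethasone and 69940778 UMIs over 8342 barcodes for control. With 1 library per group no test was possible, dexamethasone and any library difference cannot be told apart, and all intervals are 95% limits that cover counting error only.

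CC chemokines are small secreted proteins that draw leukocytes along a gradient. Ccl2 and Ccl7 are ligands of the receptor Ccr2 on monocytes, and in the mouse Ccl12 is another. Ccl3 and Ccl4 are macrophage inflammatory proteins that draw monocytes and lymphocytes. In the brain these chemokines are made chiefly by microglia, border macrophages and, after injury, astrocytes. Their transcription is known to follow signals through NF-kB and AP-1, and AP-1 is built from products of immediate-early genes such as Fos and Jun.

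The chemokine-high microglia numbered 140 of 1944 gated cells in the dexamethasone library (7.20%, exact interval 6.09 to 8.44%) and 148 of 3807 in the control library (3.89%, 3.30 to 4.55%). The share was higher in the dexamethasone library by a log2 ratio of 0.89 (0.55 to 1.23). Median depth was 7290 UMIs in dexamethasone and 6425 in control chemokine-high cells, against 8287 and 7068 UMIs in the other microglia of the same libraries. Median mitochondrial shares were 2.95% in dexamethasone and 5.85% in control chemokine-high cells, close to the 2.98% and 6.02% of the other microglia beside them. The libraries shared 5 barcode sequences, borne by 7 of the gated cells and by 0 of the chemokine-high ones. In an alternative, cells were thinned to 3900 UMIs before ranking, and cells below that depth were left out. These were 6 of the 140 dexamethasone and 23 of the 148 control chemokine-high cells, and 92 and 351 other microglia. The shares were then 8.02% for dexamethasone and 3.38% for control, a log2 ratio of 1.25.

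Markers of microglia that the rule did not use were present at the level of the other microglia. Csf1r, the receptor that microglia need to survive, stood at 2009 counts per 1000000 UMIs (CPM) in dexamethasone and 1768 CPM in control chemokine-high cells, against 1833 and 1793 CPM in other microglia. P2ry12, a purinergic receptor of resting microglia, stood at 206.1 and 255.3 CPM, against 210.7 and 265.7 CPM. The 11 markers of the microglia list summed to 6435 CPM in dexamethasone chemokine-high cells and 6275 CPM in other microglia, and to 6917 and 7094 CPM in the control library. Of 10 measured border macrophage markers, 4 (Mrc1, Pf4, Ms4a7 and Stab1) were capped by the gate in both cell sets, so their low level is no finding. Of the rest, Ccl24 was at 0 in both libraries, and Cd163, a scavenger receptor of those cells, stood at 3.57 and 0.93 CPM. The 6 markers outside the gate summed to 1210 CPM in dexamethasone chemokine-high cells against 1018 CPM in other microglia, and to 1530 against 1111 CPM in the control library, and most of that was Lyve1. All 4 mast cell markers were at 0, as were 4 of 5 markers of endothelium and mural cells. The 5 measured erythroid markers summed to 159.7 CPM in dexamethasone chemokine-high cells against 1529 CPM in other microglia, and to 344.4 against 784.9 CPM in the control library.

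The share of chemokine UMIs that chose the cells ran without a gap across the threshold. It stood at 0.0607%, where the last cells inside held 4 to 9 chemokine UMIs of 6589 to 14769 UMIs and the first ones outside held 3 to 7. Within a factor of 1.25 above it lay 75 of the 288 cells, and 91 other microglia lay above 0.8 of it. The median share was 0.105% in dexamethasone and 0.0991% in control chemokine-high cells, and the highest was 2.56% and 5.44%. The number of chemokine UMIs in a cell ranged over 2 to 251 in the dexamethasone library with a median of 8, and over 1 to 485 in the control library with a median of 7. Fewer than 3 UMIs placed 11 of the 288 cells in the set. A share of at least 0.5% was reached by 21 cells (12 dexamethasone, 9 control), and of at least 1% by 9 cells (6 dexamethasone, 3 control). The 5 highest cells held 33.1% of the chemokine UMIs of the set for dexamethasone and 37.7% for control. Among the other microglia, 60.8% for dexamethasone and 71.6% for control had no chemokine UMI at all.

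The levels of the 5 chemokines, which the rule used, are given as a description. Ccl3 (ENSRNOG00000011205) stood at 519.4 CPM in dexamethasone and 507.7 CPM in control chemokine-high cells, against 55.6 and 36.2 CPM in other microglia. Ccl4 (ENSRNOG00000011406) stood at 258.8 and 495.7 CPM, against 10.9 and 6.11 CPM. A single control cell held 271 of the 534 Ccl4 UMIs of the control set (50.7%). Ccl2 (ENSRNOG00000007159) stood at 476.5 and 483.6 CPM, against 5.48 and 5.94 CPM. Ccl7 (ENSRNOG00000000239) stood at 474.8 and 469.7 CPM, against 4.37 and 5.06 CPM. Ccl12 (ENSRNOG00000029768) stood at 523.8 CPM in dexamethasone and 315.6 CPM in control chemokine-high cells, against 12.1 and 5.87 CPM in other microglia. Ccl3 was thus the chemokine with the highest level outside the set. Without the 5 highest cells of each library, an alternative chosen after seeing the data, Ccl4 stood at 178.3 and 190.2 CPM, Ccl2 at 264.7 and 314.8 CPM, and Ccl12 at 376.1 and 264.6 CPM in the dexamethasone and control sets.

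The same 5 genes were also read in UMIs that had played no part in the choice. The UMIs of each cell were divided at random into 2 sets, cells were ranked on one and levels were read in the other. The 5 chemokines together then stood at 2203 CPM (2076 to 2336) in 132 dexamethasone and 2069 CPM (1949 to 2194) in 156 control chemokine-high cells. In the other microglia they stood at 103.1 CPM (96.3 to 110.3) and 66.0 CPM (61.9 to 70.4). Of the 288 cells chosen this way, 226 (78.5%) were cells of the rule.

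**Figure D1:**
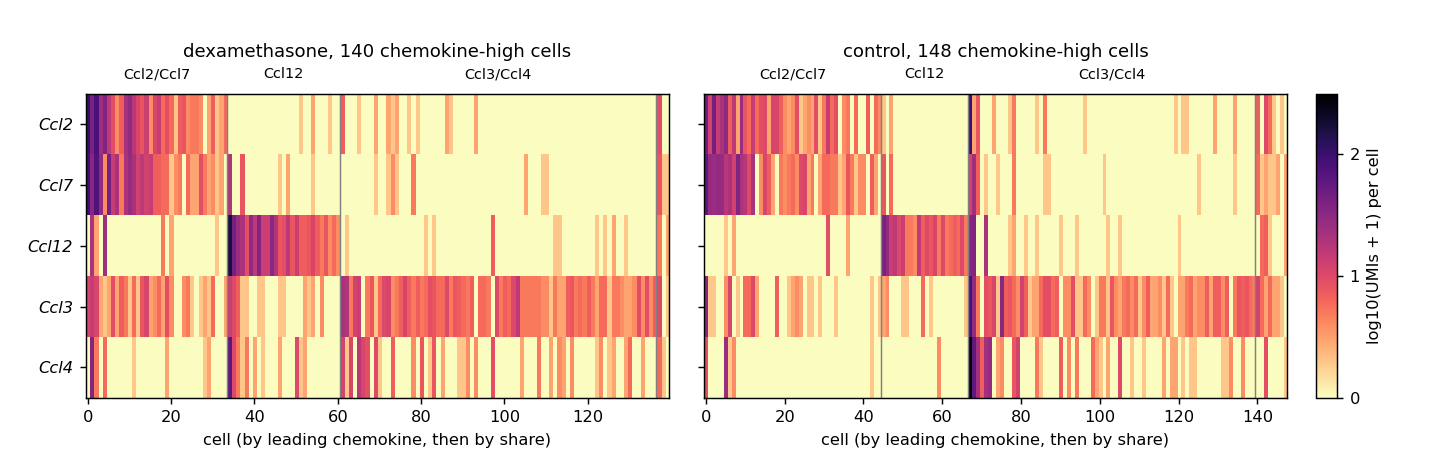
UMIs of each chemokine (rows) in each chemokine-high cell (columns), as log10(UMIs + 1), in the dexamethasone library (left, 140 cells) and the control library (right, 148 cells). Cells are ordered by the chemokines that give more than 50% of their chemokine UMIs, then by share, and cells with no such majority stand at the right end of each panel.

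In most chemokine-high cells only part of the 5 chemokines was detected. With a median of 8 chemokine UMIs per cell in the dexamethasone and 7 in the control set, a gene at 0 UMIs in a cell is not shown to be absent from it. In 42 of 140 dexamethasone cells and 51 of 148 control cells a single one of the 5 genes was detected, and all 5 were detected in 4 and 5 cells. Ccl2 and Ccl7 went together: 37 of the 48 dexamethasone cells with Ccl2 also had Ccl7 (77.1%), as did 47 of the 61 control cells (77.0%). In the whole sets Ccl7 was detected in 34.3% and 40.5% of cells. Ccl3 was found in 83.3% and 63.9% of the cells with Ccl2, near its shares of the whole sets given below. Across cells the rank correlation of the Ccl2 and Ccl7 UMI shares was 0.73 for dexamethasone (n = 140 cells) and 0.69 for control (n = 148 cells). That of Ccl3 and Ccl12 was -0.39 and -0.29. Ranking on the sum of the 5 genes favours negative values between them, and cells of 1 library share its depth and free RNA. Ccl3 was detected in 83.6% of dexamethasone and 69.6% of control chemokine-high cells, against 28.3% and 19.2% of other microglia. Erythroid cells, which should lack it, had it in 3.92% and 8.33% at median depths of 18218 and 21306 UMIs.

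Cells were next grouped by the chemokines that gave more than 50% of their chemokine UMIs, a division made after the values were seen. Ccl3 and Ccl4 led in 54.3% of the dexamethasone set (76 of 140 cells, 45.7 to 62.7%) and 49.3% of the control set (73 of 148 cells, 41.0 to 57.7%). Ccl2 and Ccl7 led in 34 (24.3%, 17.4 to 32.2%) and 45 (30.4%, 23.1 to 38.5%). Ccl12 led in 27 (19.3%, 13.1 to 26.8%) and 22 (14.9%, 9.56 to 21.6%), and 3 and 8 cells had no majority. The intervals of the dexamethasone and control shares overlapped for each of these groups. As shares of all gated microglia, each group with a majority was higher in the dexamethasone library. The shares were 3.91% (3.09 to 4.87%) against 1.92% (1.51 to 2.41%) for Ccl3 and Ccl4, and 1.39% (0.917 to 2.01%) against 0.578% (0.36 to 0.87%) for Ccl12. For Ccl2 and Ccl7 they were 1.75% (1.21 to 2.44%) against 1.18% (0.863 to 1.58%), and these intervals overlapped. Cells with no majority ran the other way, at 0.154% against 0.210%, also with overlapping intervals. In the RefSeq annotation of GRCr8, Ccl2 and Ccl7 are neighbouring genes and so are Ccl3 and Ccl4, while Ccl12 lies beyond Ccl11 on the same chromosome.

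The genes given for each group of cells include those among the 8 that most set it apart, picked after their values were seen (Rcan1, Lyve1, Islr, Tsc22d1 and Spp1 with Ccl2 and Ccl7, and Igfbp4, Il1b, Plek and Nfkbia with Ccl12), so their differences between groups describe that choice. The cells led by Ccl2 and Ccl7 had the highest Rcan1. This gene encodes a feedback inhibitor of calcineurin, the calcium-dependent phosphatase, and is a classical target of its transcription factor NFAT. Rcan1 stood at 372.2 CPM in dexamethasone and 345.0 CPM in control cells of this group. It stood at 61.9 and 85.1 CPM in cells led by Ccl3 and Ccl4, at 16.6 and 26.6 CPM in cells led by Ccl12, and at 36.3 and 32.6 CPM in other microglia. Over the remaining chemokine-high cells the log2 ratio was 2.79 (2.27 to 3.33) for dexamethasone and 2.27 (1.79 to 2.77) for control, and no cell held more than 10.4% of the group's Rcan1 UMIs.

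Lyve1, a hyaluronan receptor best known from lymphatic vessels and border macrophages, followed the same order. It stood at 1910 CPM in dexamethasone and 2472 CPM in control cells led by Ccl2 and Ccl7, at 706.4 and 898.0 CPM with Ccl3 and Ccl4, and at 357.4 and 414.8 CPM with Ccl12. Other microglia had 725.9 and 896.8 CPM, so the cells led by Ccl3 and Ccl4 were near that level. Mrc1, the mannose receptor of border macrophages and a gene of the gate, stood at 249.3 and 168.2 CPM in the cells led by Ccl2 and Ccl7, against 188.0 and 188.2 CPM in other microglia, and Cd163 at 7.02 and 0 CPM. Islr, a secreted leucine-rich repeat protein, stood at 70.2 and 114.1 CPM in this group, against 15.6 and 26.1 CPM in other microglia. Tsc22d1, a regulator induced by TGF-beta, stood at 87.8 and 136.9 CPM, against 34.0 and 41.7 CPM. Spp1, which encodes osteopontin, led the group too, at 87.8 and 191.1 CPM, but 1 cell held 56.0% of its dexamethasone UMIs and 1 held 43.3% of its control UMIs.

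Igfbp4 and Plek were higher in the cells led by Ccl12 than in other microglia, while the levels of Il1b, Nfkbia and Cxcl10 there rested in large part on single cells. Il1b, the precursor of interleukin-1 beta, stood at 170.4 CPM in dexamethasone and 154.2 CPM in control cells of this group, at 80.8 and 88.4 CPM with Ccl2 and Ccl7, at 43.0 and 25.5 CPM with Ccl3 and Ccl4, and at 17.9 and 13.3 CPM in other microglia. A single cell held 46.3% of these Il1b UMIs for dexamethasone and 93.1% for control. Igfbp4, which binds insulin-like growth factors, stood at 187.0 and 148.9 CPM, against 56.6 and 94 CPM in other microglia, and its highest cell held 37.8% and 25% of the UMIs. Plek, the platelet and leukocyte protein pleckstrin, stood at 91.4 and 111.7 CPM, against 38.0 and 32.3 CPM. Nfkbia, the inhibitor of NF-kB that NF-kB itself induces, stood at 162.1 and 95.7 CPM, against 29.0 and 30.9 CPM, with 28.2% and 61.1% of the UMIs in its highest cell. Cxcl10, an interferon-induced chemokine, stood at 54.0 and 101.0 CPM against 3.08 and 2.93 CPM, and all 19 of its control UMIs came from 1 cell.

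The cells led by Ccl3 and Ccl4 had the highest Fos and the mitotic genes closest to other microglia. Jun, a subunit of the transcription factor AP-1, stood at 421.1 CPM in dexamethasone and 363.9 CPM in control cells of this group. It stood at 112.4 and 97.0 CPM with Ccl2 and Ccl7, at 274.2 and 377.6 CPM with Ccl12, and at 111.3 and 117.9 CPM in other microglia. Fos, its partner, stood at 398.7 and 212.8 CPM in this group, against 87.8 and 68.7 CPM in other microglia. Mki67, a marker of cycling cells, stood at 269.8 and 291.5 CPM here, at 154.5 and 57.0 CPM with Ccl2 and Ccl7, at 33.2 and 90.4 CPM with Ccl12, and at 329.1 and 386.0 CPM in other microglia. Kif23, Bub1, Aspm and Cenpf, genes of spindle, checkpoint and kinetochore, were among the 8 genes that most set this group apart.

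**Figure D2:**
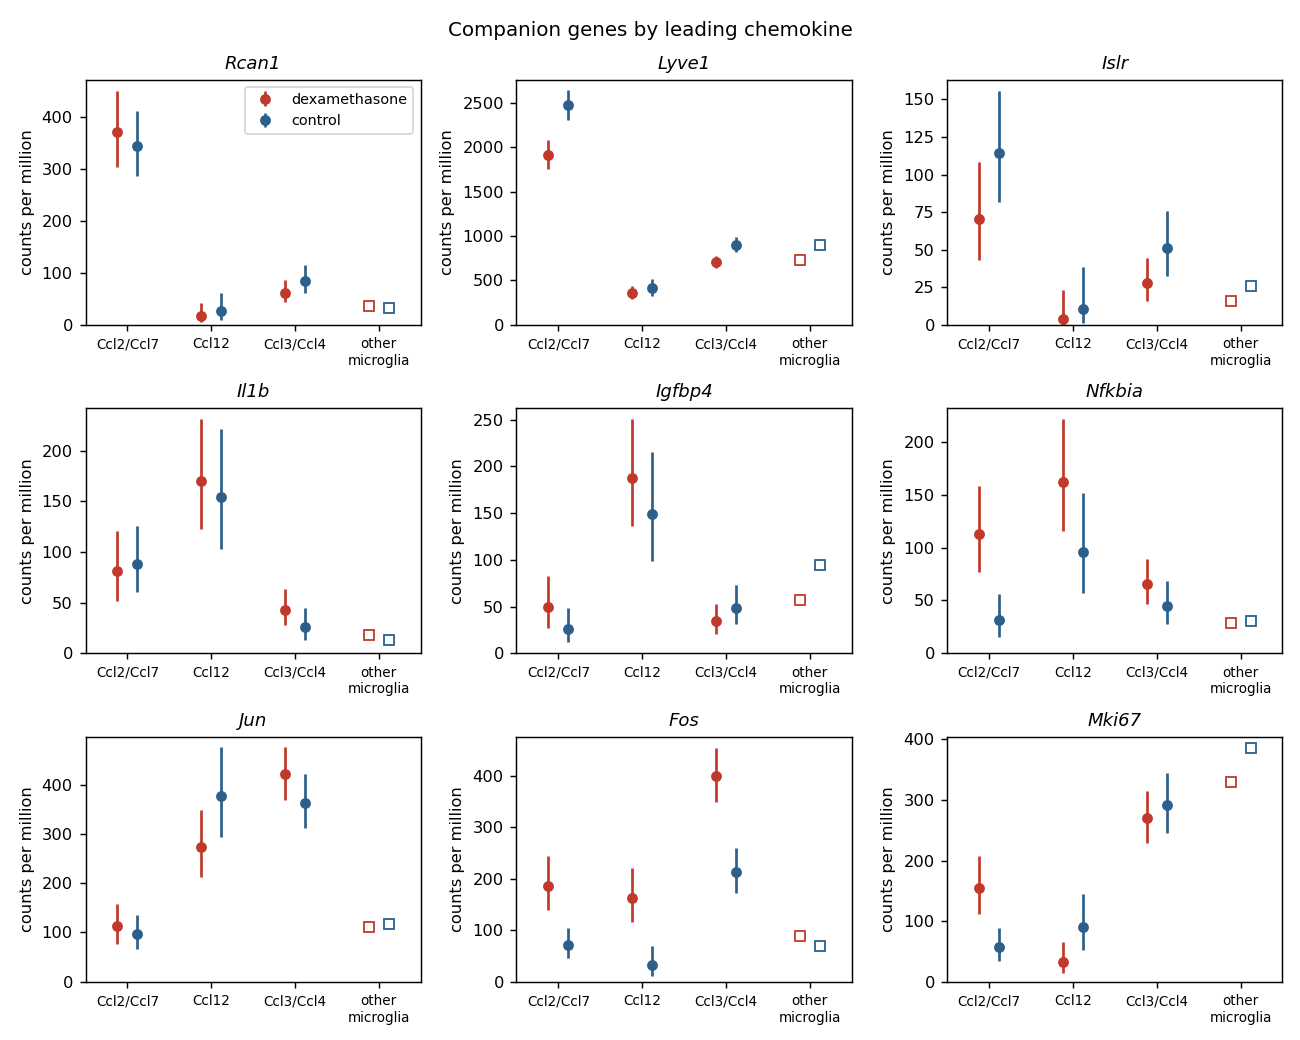
CPM of 9 genes in chemokine-high cells led by Ccl2 and Ccl7, by Ccl12, and by Ccl3 and Ccl4 (filled circles with exact Poisson intervals), and in other microglia (open squares), for the dexamethasone library (red) and the control library (blue). Rcan1, Lyve1 and Islr are highest with Ccl2 and Ccl7 in both libraries, Igfbp4 with Ccl12, and Fos with Ccl3 and Ccl4. For Il1b with Ccl12, 1 cell held 93.1% of the control UMIs.

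The microglia with Gpnmb or Lpl, which took no part in the grouping, gave a second reading, added after seeing the data. Of these cells 262 in the dexamethasone and 329 in the control library lay at or above the same chemokine share. Their groups numbered 142 and 200 cells for Ccl3 and Ccl4, 93 and 111 for Ccl2 and Ccl7, and 18 and 6 for Ccl12. Rcan1 stood at 516.8 and 436.4 CPM in those led by Ccl2 and Ccl7, against 196.3 and 165.3 CPM with Ccl3 and Ccl4. Lyve1 stood at 2544 and 2195 CPM, against 1006 and 932.4 CPM, and Islr at 187.3 and 132.8 CPM, against 64.9 and 90.7 CPM. Spp1 ran the other way there, at 406.4 and 573.1 CPM with Ccl2 and Ccl7 against 1785 and 1554 CPM with Ccl3 and Ccl4. Mki67 did not keep its order, at 57.4 and 114.2 CPM with Ccl2 and Ccl7 and 146.1 and 96.4 CPM with Ccl3 and Ccl4.

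The stretches of 250 bases before the start of Ccl7, Ccl12, Rcan1 and Il1b are shown because Ccl7 and Ccl12 lead groups of cells, Rcan1 was highest with Ccl2 and Ccl7, and Il1b ranked first against other microglia. They come from RefSeq on GRCr8, whose table holds 2 of the 5 chemokines and 12 of 17 genes looked up. Each is written 5′ to 3′ on the strand of its gene, with capitals where 1 of 5 motifs matched on either strand. The motifs were kappaB, AP-1, the interferon element ISRE, the NFAT core (GGAAA, which can lie inside both kappaB and ISRE) and the TATA box, read as TATAAA. The Ccl7 stretch is chr10:67513845-67514094 on the + strand, the Ccl12 stretch chr10:67567626-67567875 on the + strand, the Rcan1 stretch chr11:45118237-45118486 on the - strand and the Il1b stretch chr3:137036582-137036831 on the - strand.
Ccl7: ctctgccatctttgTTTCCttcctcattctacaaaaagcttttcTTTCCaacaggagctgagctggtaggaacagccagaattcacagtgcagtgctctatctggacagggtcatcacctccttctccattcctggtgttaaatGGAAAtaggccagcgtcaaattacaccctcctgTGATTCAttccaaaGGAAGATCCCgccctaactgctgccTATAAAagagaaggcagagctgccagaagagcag
Ccl12: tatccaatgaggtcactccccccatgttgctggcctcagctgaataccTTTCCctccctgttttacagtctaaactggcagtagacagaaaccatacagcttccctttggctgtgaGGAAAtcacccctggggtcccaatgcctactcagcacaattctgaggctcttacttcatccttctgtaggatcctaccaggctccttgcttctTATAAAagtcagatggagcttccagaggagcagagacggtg
Rcan1: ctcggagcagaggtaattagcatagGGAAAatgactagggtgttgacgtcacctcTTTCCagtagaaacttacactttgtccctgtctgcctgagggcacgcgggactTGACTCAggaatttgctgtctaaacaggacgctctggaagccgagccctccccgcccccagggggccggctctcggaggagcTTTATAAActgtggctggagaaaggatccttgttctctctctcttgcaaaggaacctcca
Il1b: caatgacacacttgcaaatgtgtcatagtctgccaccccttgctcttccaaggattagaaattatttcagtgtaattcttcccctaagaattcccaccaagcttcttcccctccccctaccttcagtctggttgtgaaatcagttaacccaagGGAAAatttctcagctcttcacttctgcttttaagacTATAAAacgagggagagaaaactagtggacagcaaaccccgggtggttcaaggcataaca
Ccl7 held 1 kappaB, 1 AP-1, 3 NFAT core and 1 TATA match. Ccl12 held 2 NFAT core and 1 TATA match, Rcan1 1 AP-1, 2 NFAT core and 2 overlapping TATA matches, and Il1b 1 NFAT core and 1 TATA match. The same window held a kappaB match in 3.3% of 33469 RefSeq promoters, an AP-1 match in 6.34%, an ISRE match in 3.41%, an NFAT core in 56.9% and a TATA match in 12.9%. A match is a run of letters and not a site that was shown to be bound.

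Against the other microglia, the chemokine-high cells as a whole differed in few genes beyond the rule. A gene counted as changed when its level differed at least 2-fold the same way in both libraries. Of 5228 genes with a mean of at least 20 CPM, 13 were that much higher (0.249%) and 11 that much lower (0.21%). Of these 11, 2 have clone-type names and are not described. Over all of them the median log2 ratio was -0.003 in the dexamethasone and -0.033 in the control library.

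Il1b came first when genes were ranked by the smaller of both library ratios. It stood at 79.4 CPM in dexamethasone chemokine-high cells against 17.9 CPM in other microglia, and at 67.8 against 13.3 CPM in the control library, log2 ratios of 2.15 (1.79 to 2.5) and 2.34 (1.96 to 2.71). In the highest cell lay 21.3% of the UMIs of the dexamethasone set and 37.0% of those of the control set. Without the 5 cells of highest chemokine share in each library Il1b stood at 60.4 and 58.9 CPM. Those cells were not chosen by Il1b. The control set kept 61 of its 73 Il1b UMIs, so the cell with 37.0% of them stayed in it. Among 21 inflammatory cytokines and mediators 3 passed the minimum of 20 CPM, and the other two lay close to other microglia: Il18 at 92.8 and 88.2 CPM against 96.6 and 87.8 CPM, and Tgfb1 at 286.5 and 264.5 CPM against 279.2 and 272.9 CPM. Tnf was at 0 UMIs in the chemokine-high cells of both libraries, which allows up to 2.68 CPM in the dexamethasone and 2.78 CPM in the control set at 3 counts.

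Rcan1 stood at 134.8 CPM in dexamethasone chemokine-high cells against 36.4 CPM in other microglia, and at 160.6 against 32.6 CPM in the control library (log2 1.89 and 2.30). Ch25h, whose enzyme makes an oxysterol that damps cholesterol synthesis and viral entry, stood at 166.9 against 37.9 CPM and at 153.2 against 51.9 CPM (log2 2.14 and 1.56). Islr stood at 35.7 against 15.6 CPM and at 63.1 against 26.1 CPM (log2 1.19 and 1.27). Sgk1, a kinase whose gene responds to serum and glucocorticoids, stood at 104.4 against 44.3 CPM and at 108.6 against 48.1 CPM (log2 1.24 and 1.18). Between dexamethasone and control chemokine-high cells its log2 ratio was -0.06 (-0.44 to 0.32). Rhob, a small GTPase of endosomes and the cytoskeleton, stood at 110.7 against 54.6 CPM and at 103.0 against 51.1 CPM (log2 1.02 and 1.01).

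Immediate-early genes, which respond to a stimulus without new protein synthesis, made up most of the rest. Of the 19 list members measured, 15 were higher in both libraries and 1 lower, where 24.9% of all genes were higher and 31.8% lower in both. At least 2-fold higher in both were 7 of them, where 0.249% of all genes were. The list median was 0.98 in the dexamethasone and 0.55 in the control library. Btg2, an antiproliferative gene induced early, stood at 88.3 CPM in dexamethasone chemokine-high cells against 15 CPM in other microglia, and at 59.4 against 14.4 CPM in the control library (log2 2.56 and 2.04). Egr1, a zinc finger factor, stood at 159.7 against 30.9 CPM and at 57.5 against 18.6 CPM (log2 2.37 and 1.63). Dusp1, a phosphatase that turns off MAP kinases, stood at 70.5 against 24 CPM and at 35.3 against 12.2 CPM (log2 1.55 and 1.53). Jun stood at 307.9 against 111.3 CPM and at 262.7 against 117.9 CPM (log2 1.47 and 1.16). Fosb (log2 1.87 and 1.24), Ier2 (1.56 and 1.02) and Fos (1.72 and 1.01) completed the list members past 2-fold. Fos lies outside the rule for named genes and was added after its values were seen. Dusp6, the member with the highest level, differed little, at 369.5 against 345.6 CPM and 293.3 against 303.1 CPM. Sorting and dissociation of the tissue were shared by both cell sets of a library, and the part of handling in these levels was not tested.

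**Figure D3:**
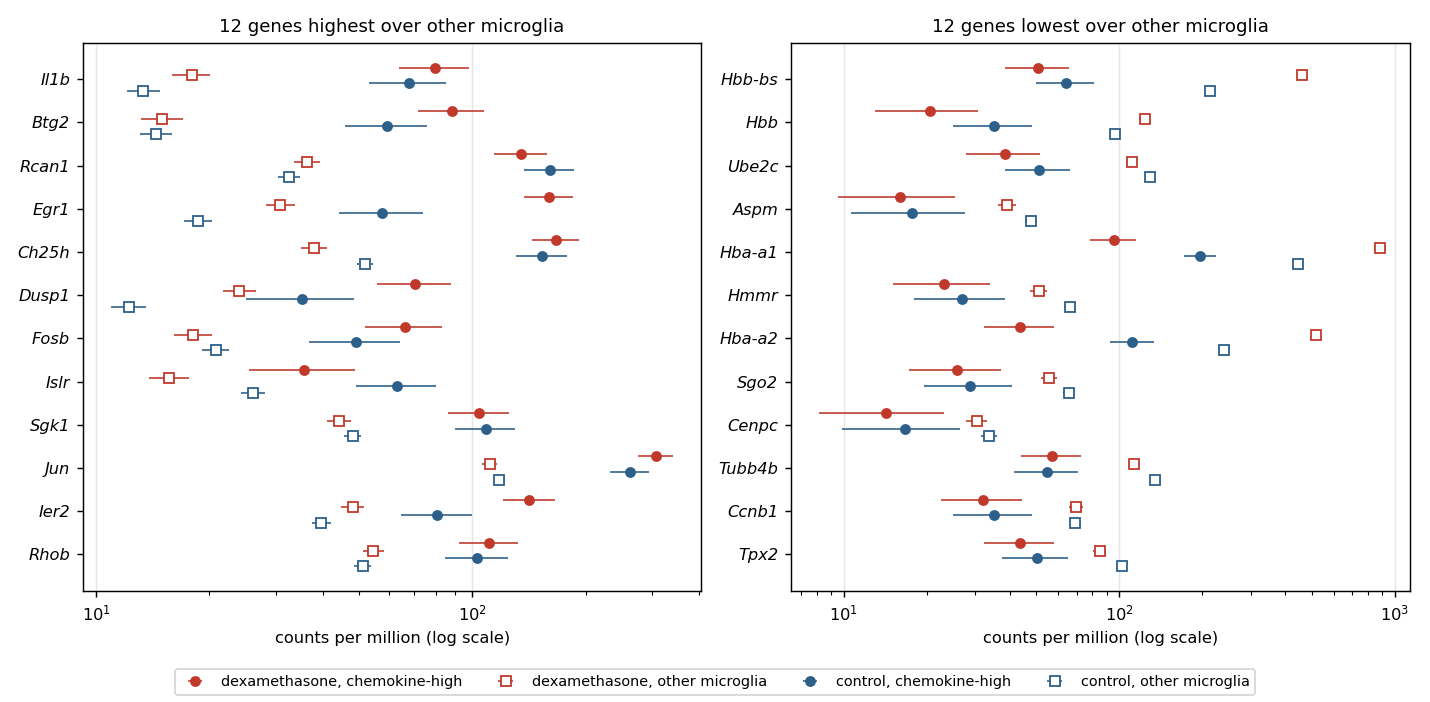
CPM on a log scale of the 12 genes with the highest (left) and the 12 with the lowest (right) ratio, clone-type names left out, of chemokine-high cells (filled circles) over other microglia (open squares), in the dexamethasone (red) and control (blue) libraries, with exact Poisson intervals. Genes are ordered by the smaller of both library ratios, and the filled circles lie right of the open squares of the same colour on the left and left of them on the right.

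NF-kB genes shifted less. Of 9 measured, 6 were higher in both libraries and 0 lower, where 24.9% of all genes were higher and 31.8% lower in both. Past 2-fold in both were 0 of them, and the list median was 0.16 in the dexamethasone and 0.12 in the control library. Cd83, a membrane protein of activated antigen-presenting cells, stood at 256.1 CPM in dexamethasone chemokine-high cells against 117.0 CPM in other microglia, and at 188.4 against 98.0 CPM in the control library (log2 1.13 and 0.94). Nfkbia stood at 97.3 against 29.0 CPM and at 52.0 against 30.9 CPM (log2 1.75 and 0.75). Bcl2a1, a survival gene, stood at 303.4 against 271.5 CPM and at 246.0 against 223.9 CPM.

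Most other chemokines were under the minimum of 20 CPM. Of 19 on the list 2 passed the minimum, Ccl6 and Cxcl16. Cxcl16, a membrane-bound chemokine of macrophages, stood at 88.3 CPM in dexamethasone chemokine-high cells against 89.3 CPM in other microglia, and at 96.5 against 87.4 CPM in the control library. Ccl6 stood at 85.7 against 111.2 CPM for dexamethasone and at 171.7 against 89.4 CPM for control, so its direction differed. Cxcl10 stayed under the minimum at 28.6 against 3.08 CPM and 32.5 against 2.93 CPM. Over all genes 24.9% were higher and 31.8% lower in both libraries, against which the counts of the next lists are to be read. Of 7 interferon-response genes 0 were higher in both libraries and 4 lower. Of 9 heat shock genes 3 were higher and 3 lower, with Hspa5, the chaperone of the endoplasmic reticulum, at 741.6 against 674.0 CPM and 1102 against 937.1 CPM.

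Of 20 homeostatic genes 7 were higher and 5 lower in both libraries. Over all genes 24.9% were higher and 31.8% lower in both, and a count near these shares is no result about a list. Genes of axon-tract and disease-associated microglia, apart from the Gpnmb and Lpl of the gate, were slightly higher in 11 of 14 and lower in 1, and the median was 0.24 in the dexamethasone and 0.28 in the control library. Igf1, a growth factor for neurons and myelin, stood at 436.4 CPM in dexamethasone chemokine-high cells against 284.1 CPM in other microglia, and at 364.8 against 255.3 CPM in the control library (log2 0.62 and 0.51). Hmox1, which degrades heme, stood at 229.3 against 174.2 CPM and at 267.3 against 178.4 CPM (log2 0.40 and 0.58). Apoe, the lipid carrier, stood at 11288 against 9616 CPM and at 13332 against 11046 CPM. Lysosome and phagocytosis genes were higher in 12 of 20 and lower in 1, with Ctsa, a lysosomal peptidase, at 469.4 against 377.9 CPM and 491.0 against 419.0 CPM. Of 6 complement genes 3 were higher and 0 lower, with C5ar1, the receptor for a complement fragment, at 55.3 against 35.6 CPM and 44.6 against 31.5 CPM. Of 12 genes of cholesterol and lipid handling 8 were higher and 0 lower, Ch25h alone past 2-fold. Of 8 genes of the glucocorticoid receptor response 5 were higher and 0 lower, among them Sgk1 past 2-fold and Mt1 at 117.8 against 90.2 CPM and 89.1 against 74.8 CPM. Counts of the smaller lists were also few: 3 of 10 innate sensors were higher and 3 lower, 1 of 6 antigen presentation genes was higher and 1 lower, 2 of 10 genes of glycolysis and hypoxia were higher and 3 lower, and 2 of 5 genes of the unfolded protein response were higher and 0 lower.

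Genes of the cell cycle were lower. All 22 measured G2/M genes were lower in both libraries, 2 of them past 2-fold in both. Over all genes 24.9% were higher and 31.8% lower in both libraries, and 0.21% were at least 2-fold lower. The G2/M list median was -0.78 in the dexamethasone and -1.11 in the control library. Ube2c, which helps degrade mitotic cyclins, stood at 38.4 CPM in dexamethasone chemokine-high cells against 111.0 CPM in other microglia, and at 51.1 against 129.5 CPM in the control library (log2 -1.53 and -1.34). Mki67 stood at 189.2 against 329.1 CPM and at 166.2 against 386.0 CPM (log2 -0.80 and -1.22). Aspm, Hmmr, Sgo2, Cenpc, Tubb4b, Ccnb1 and Tpx2, genes of spindle, centromere and mitotic entry, completed the mitotic genes among the 12 lowest with an ordinary symbol, with log2 ratios of -1.44 to -0.96. Of 15 S phase genes 0 were higher and 9 lower in both, among them Pcna, the clamp of DNA replication, at 100.8 against 131.6 CPM and 98.4 against 120.2 CPM. A UMI of Mki67 or Top2a was found in 25.7% (18.7 to 33.8%) of dexamethasone chemokine-high cells against 32.7% (30.5 to 34.9%) of other microglia, and in 20.3% (14.1 to 27.7%) against 33.2% (31.6 to 34.7%) in the control library. After thinning to 3900 UMIs these shares were 19.4% against 27.2% and 16.8% against 28.3%. In erythroid cells, which hold cycling precursors, the unthinned share was 17.6% and 21.2%. The weaker of both G2/M medians was -0.55 in thinned cells, -0.21 when the ranking used Ccl3 and Ccl4 alone, and -0.98 when it used Ccl2, Ccl7 and Ccl12. Among cells without a UMI of Mki67 or Top2a it was 0, since directions differed. There the smaller log2 ratios of Aspm and Sgo2 came out at 1.82 and 1.08. Both rest on few UMIs, with a count of 0 replaced by a fixed small count, so no direction is read from them.

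Globin RNA was also lower. Hba-a1 stood at 95.5 CPM in dexamethasone chemokine-high cells against 880.7 CPM in other microglia, and at 196.8 against 447.0 CPM in the control library, and Hbb-bs at 50.9 against 459.0 CPM and 64.0 against 213.7 CPM. Hba-a2 and Hbb ran the same way, and reads may be split between these near-identical copies. In thinned cells the direction of all 4 differed between the libraries, and without cells of more than 2 times the median depth the weaker log2 ratio of Hba-a1 was -0.73 and that of Hbb-bs -0.95. The part of erythroid RNA in deep cells was not tested.

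**Figure D4:**
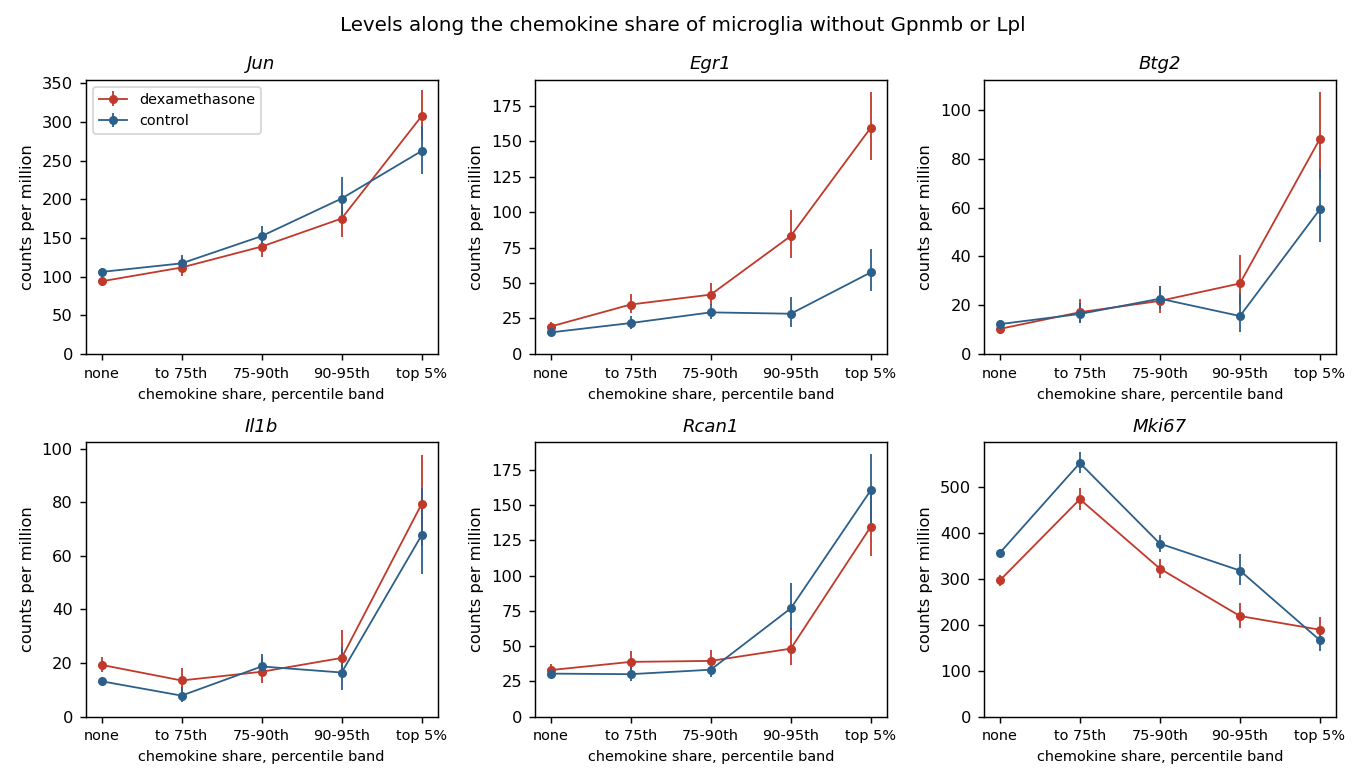
CPM of 6 genes, with exact Poisson intervals, in gated microglia ordered by chemokine share: none, up to the 75th percentile, 75th to 90th, 90th to 95th and the top 5%, for the dexamethasone (red) and control (blue) libraries. Jun climbs from band to band, Il1b is high in the top band alone, and Mki67 peaks in the band of cells with few chemokine UMIs, which are the deepest cells.

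Genes differed in whether they followed the chemokine share by degrees. From cells with no chemokine UMI to the top 5%, Jun stood at 93.9, 111.8, 138.9, 175.2 and 307.9 CPM for dexamethasone and at 106.1, 117.2, 152.4, 201.1 and 262.7 CPM for control. Egr1 stood at 19.3, 34.9, 41.8, 83.2 and 159.7 CPM for dexamethasone and at 15.2, 21.8, 29.3, 28.3 and 57.5 CPM for control. Both genes were thus already higher in bands below the threshold. Il1b stood at 19.3, 13.5, 16.7, 21.9 and 79.4 CPM for dexamethasone and at 13.2, 7.83, 18.7, 16.5 and 67.8 CPM for control, and was set apart by the top band only. Rcan1 stood at 33.0, 38.8, 39.5, 48.2 and 134.8 CPM and at 30.5, 30.1, 33.2, 76.8 and 160.6 CPM, with the control library higher in the band next to the top. Mki67 stood at 296.7, 473.5, 322.3, 219.1 and 189.2 CPM and at 356.7, 552.3, 376.8, 318.1 and 166.2 CPM. The second of these bands holds cells with a low share above 0, and its median depth was 10998 and 10374.5 UMIs against 7627.5 and 6733 UMIs where no chemokine was found.

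Within the chemokine-high set, 58 of 5197 genes were at least 2-fold higher in dexamethasone than in control cells (1.12%) and 42 at least 2-fold lower (0.808%). The median log2 ratio over all of these genes was 0.02, and it was -0.02 in other microglia. The genes named here are the 8 highest and 8 lowest of those with at least 50 UMIs and the same direction in other microglia, which the choice itself required. F13a1, the coagulation factor subunit of tissue macrophages, stood at 75 CPM in dexamethasone and 15.8 CPM in control chemokine-high cells, and at 123.3 and 14.1 CPM in other microglia (log2 2.25 and 3.12). Lsp1, an actin-binding protein of leukocytes, stood at 42.8 and 9.28 CPM, and at 47.9 and 6.11 CPM in other microglia. Cideb, a lipid droplet protein, stood at 98.2 and 27.8 CPM, and at 82.0 and 29.1 CPM in other microglia. Pygl, Chpt1 and B3galnt1, enzymes of glycogen, phospholipid and glycan metabolism, had log2 ratios of 1.60, 1.65 and 1.69. Rps19l2 and Ppial4d, also among the highest at 1.70 and 1.5, are close copies of Rps19 and Ppia, so the assignment of their reads is uncertain.

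On the lower side, Mt-nd1, Mt-nd4l and Mt-nd6, mitochondrially encoded subunits of complex I, had log2 ratios of -1.32, -1.36 and -1.42 in chemokine-high cells and of -1.26, -1.38 and -0.97 in other microglia. The median mitochondrial share moved with them, at 2.95% in dexamethasone and 5.85% in control chemokine-high cells. Ifit2, an interferon-induced gene, had 1 UMI in dexamethasone and 66 UMIs in control chemokine-high cells, and 1 control cell held 90.9% of the control count. Cd74, the invariant chain of MHC class II, had 5 and 49 UMIs, and 1 control cell held 46.9%. Nav3, Ddhd2 and Ubtd1 were lower as well, with log2 ratios of -1.58, -1.46 and -1.40 in chemokine-high cells and of -1.04, -0.77 and -0.13 in other microglia.

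Immediate-early genes were higher in the dexamethasone set. All 20 measured list members were higher in dexamethasone than in control chemokine-high cells, where 52.2% of all genes were higher and 47.8% lower. Their median log2 ratio was 0.52 and 4 were at least 2-fold higher, where 1.12% of all genes were. In other microglia 16 of these 20 were higher and the list median was 0.16, where the median over all genes was -0.02. The share of all genes higher in other microglia was not counted. Egr1 had a log2 ratio of 1.47 (1.05 to 1.91) in chemokine-high cells and 0.73 (0.55 to 0.91) in other microglia. Dusp1 had 1.0 (0.42 to 1.60) and 0.98 (0.77 to 1.19), and Btg2 0.57 (0.10 to 1.05) and 0.05 (-0.18 to 0.29). Of 8 measured genes of the glucocorticoid receptor response, 3 were higher and 5 lower in dexamethasone chemokine-high cells, with a median of -0.08. Mt1, a metallothionein, stood at 117.8 CPM in dexamethasone and 89.1 CPM in control chemokine-high cells. Whether dexamethasone cells differ from control cells by more in the chemokine-high set than in other microglia was not tested.

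The chemokine genes were not confined to microglia of the set. All 5 together stood at 569.9 CPM in dexamethasone and 411.0 CPM in control microglia with Gpnmb or Lpl, of which 18.1% and 13.8% lay at or above the chemokine share of the threshold at median depths of 10721.5 and 9858 UMIs. Border macrophages had 341.9 and 385.6 CPM, and 1 control cell held 43.4% of the control UMIs. Erythroid cells had 11.7 and 30.2 CPM, and neuron-like cells 2.36 and 8.31 CPM. Both of these were below the 88.4 and 59.2 CPM of other microglia.

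**Figure D5:**
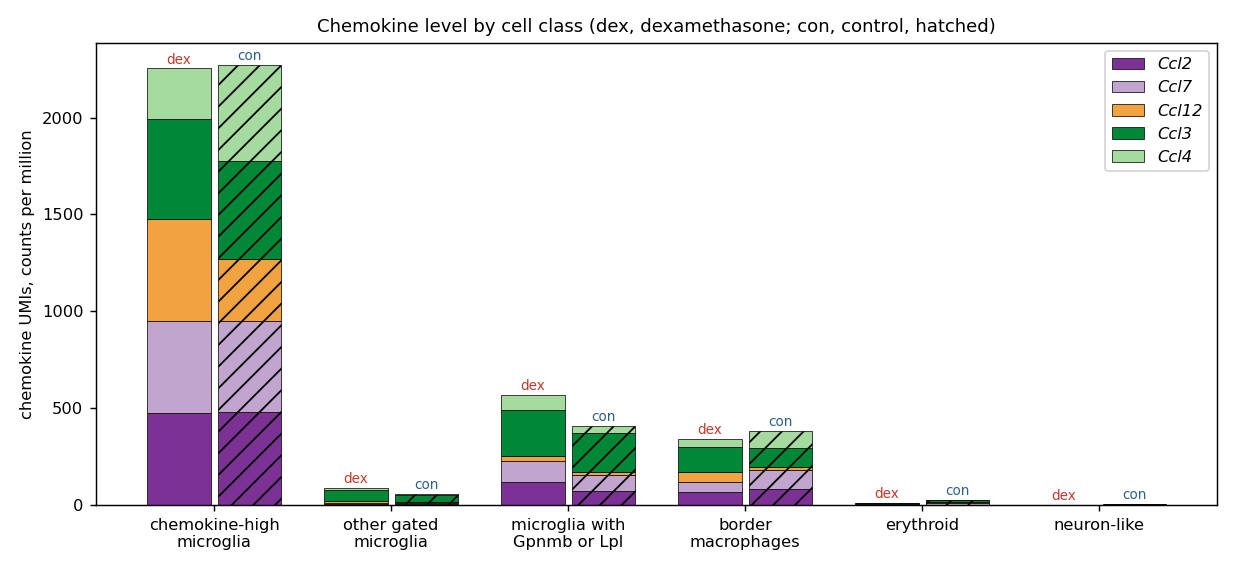
CPM of the 5 chemokines, stacked, in 6 cell classes of the dexamethasone library (left bar of each pair) and the control library (right bar, hatched). The chemokine-high bars reach 2253 and 2272 CPM by the rule that chose the cells, and microglia with Gpnmb or Lpl and border macrophages come next.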

How the data were processed

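Droplet libraries of sorted hippocampal cells, 1 per group, were analysed from the deposited counts of UMIs per gene and barcode. These count matrices were made with Cell Ranger 7.0.0 on Rnor_6.0, per the submitters' processing notes. They list 32623 genes, and 11 of 445 gene list entries had no match and were not analysed here. UMIs were summed per library and cell set and given as counts per 1000000 UMIs (CPM) with python 3.11.15, numpy 2.4.6, scipy 1.17.1 and pandas 2.3.3. Intervals are 95% and exact (Poisson for CPM, Clopper-Pearson for shares, conditional binomial for ratios). Ratios cover genes with a mean of at least 20 CPM, apart from Ifit2 among the flagged results, and a count of 0 was set at 3 counts. The steps were tested on simulated data.

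The members and lists were chosen with earlier results of these data known. Named are, leaving out genes of the rule and clone-type names, the 12 highest and 12 lowest genes by the smaller of both library ratios, the 8 highest and 8 lowest for dexamethasone over control with at least 50 UMIs and the same direction in other microglia, and, per list, the genes of highest level and largest ratio, of which the text gives a part. No doublet caller was run. Cells above 2 times the median depth of their library were left out in an alternative. Other alternatives changed the cell filters, the share taken, the chemokines summed, the depth, the minimum CPM, the fold and the weighting. Border macrophages, erythroid and neuron-like cells were gated on fixed shares of marker UMIs.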

Additional observations from a re-analysis of the deposited data

Results flagged for a closer look

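Over 224 genes and 448 comparisons, 13 were flagged. In these the groups set side by side had opposite directions, each with an interval clear of no change. Opposite directions with an interval that reached no change were not flagged. None of the flagged differences was tested. For dexamethasone over control, Hba-a1 had a log2 ratio of -1.04 in chemokine-high cells and 0.98 in other microglia, and Hba-a2 -1.35 and 1.12. Ccl6 had -1.0 and 0.32, and Spp1 -1.25 and 0.44. Cd14 had 0.31 and -0.12, Bin1 0.17 and -0.14, and Cenpf 0.62 and -0.44. For chemokine-high over other microglia, Ifit2 had a log2 ratio of -2.73 for the dexamethasone library, which rests on 1 UMI in the chemokine-high cells. For the control library its ratio was 3.27, where 1 cell held 90.9% of the chemokine-high UMIs. The mean of Ifit2 over both cell sets and libraries, 18.6 CPM, lay under the minimum of 20 CPM. Cd74 had -1.41 and 0.87, with 46.9% of the control UMIs in 1 cell. Spp1 had -0.78 and 0.90, Ccl6 -0.38 and 0.94, B3galnt1 0.48 and -0.73, and Cebpb 0.17 and -0.21.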

How the results depend on the processing

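No paired analysis was possible because each group has 1 library. The log2 share ratio of 0.89 stood at 1.25 in thinned cells. For shares of at least 0.5% chemokine UMIs it was 1.38 (0.617 against 0.236% of cells). For at least 1% it was 1.97 (0.309 against 0.0788%). Few cells are left in both, and the interval for 1% was -0.26 to 4.60. Lower ratios were 0.59 when ranked on Ccl2, Ccl7 and Ccl12 and 0.59 with Gpnmb and Lpl carriers kept. Without Mki67 or Top2a cells the ratio was 0.78, and in the top 10% it was 0.84. The remaining alternatives lay between 0.93 and 1.13. Genes at least 2-fold higher in both libraries numbered 13, against 7 when ranked on Ccl2, Ccl7 and Ccl12, 8 with UMIs split, 8 at a minimum of 50 CPM, 178 with no minimum and 23 at 1.5-fold. Lower genes numbered 11, against 34 in the top 2.5%, 6 in the top 10%, 3 without cells of very high UMI count, 4 in thinned cells, 4 without Mki67 or Top2a cells, 6 on Ccl3 and Ccl4, 17 on Ccl2, Ccl7 and Ccl12, 1 as a mean over cells, 19 with UMIs split, 7 at 50 CPM, 80 with no minimum and 63 at 1.5-fold. Genes higher in dexamethasone than in control chemokine-high cells numbered 58, against 149 in the top 2.5%, 30 in the top 10%, 171 thinned, 117 without Mki67 or Top2a cells, 145 with UMIs split, 21 at 50 CPM, 648 with no minimum and 320 at 1.5-fold. Lower ones numbered 42, against 130, 24, 128, 83, 128, 18, 770 and 235 in that order, and 66 as a mean over cells. Without Mki67 or Top2a cells, Aspm stood at 1.82 and Sgo2 at 1.08, both reversed. With few UMIs and a count of 0 set at 3 counts, no direction is read from them, and the cause was not tested. Direction was kept in 327 of 336 named ratios of chemokine-high over other microglia, in 196 of 224 list medians and in 208 of 208 dexamethasone over control ratios. The named genes were picked as the extremes of these ratios in the same cells, which favours such agreement. Medians of the innate sensor, heat shock, homeostatic, antigen presentation and glycolysis lists differed in direction between the libraries and were set to 0. For these lists a 0 in an alternative counted as kept, so no direction was kept there. With 1 library per group the spread between embryos is unknown, and most chemokine-high cells rest on few chemokine UMIs.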
